A study of Homo sapiens with 12 samples.

Results

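Ligands of receptor tyrosine kinases were followed in 3 human hepatocellular carcinoma cell lines, Hep3B, Huh7 and MHCC97H, by RNA sequencing of 12 libraries. The ligands were taken from a list of 8 names: AREG, HBEGF, BTC and TGFA of the EGF family, PDGFB and PDGFC, and the ephrins EFNA1 and EFNB1. Of these 8, 7 were among the 11548 genes of the table, and TGFA was not analysed here. The study asked how liver cancer cells respond to inhibition of the kinase mTOR, alone and together with inhibition of the phosphatase SHP2, which carries signals from receptor tyrosine kinases. Each wild-type line was left untreated or treated with AZD8055, an mTOR kinase inhibitor, with compound #57, an SHP2 inhibitor, or with the combination, and each condition was 1 library. Treatment lasted 48 h in Hep3B and Huh7 and 24 h in MHCC97H, so that duration and cell line cannot be told apart where MHCC97H differs. AZD8055 was given at 100 nM, alone and in the combination, where compound #57 was added at 5 μM. The dose of compound #57 given alone is not given in the sources used here.

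EGF family ligands are made as membrane-bound precursors, are released by ADAM metalloproteases and activate EGFR and its relatives ERBB2 to ERBB4 in the same or neighbouring cells. PDGF ligands are secreted dimers which act through PDGFRA and PDGFRB, and PDGFC must first be cleaved by a protease such as plasminogen activator. Ephrins stay on the cell surface, EFNA1 by a lipid anchor and EFNB1 by a transmembrane segment, and bind Eph receptors on adjacent cells. Many of these receptors lie upstream of SHP2, RAS and mTOR, and several of the ligand genes are known to be controlled by ERK signaling.

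Levels are given as reads of a gene scaled to 10000000 reads per library, and folds within a cell line are ratios of such levels. With 1 library per condition, the 95% Clopper-Pearson intervals beside these folds cover counting error only and no p-value was computed within a line. Log2-fold changes over the 3 lines (n = 3) are differences of log2(level + 1), and a gene was called where the limma adjusted p-value over all 11548 genes was under 0.05. The libraries held 10659952 to 15957252 reads. The lines differed in their liver identity. Untreated Hep3B and Huh7 had ALB levels of 211082 and 40750, whereas ALB was at 303, AFP at 60.7 and TTR at 0 in untreated MHCC97H. Of 4 epithelial markers, KRT8 and KRT18 were at 11312 or more in each untreated line, whereas EPCAM was at 3226 in Hep3B, 372 in Huh7 and 5.38 in MHCC97H and CDH1 at 1155, 958 and 196. None of 5 leukocyte markers was in the table. Of 8 hepatocyte and hepatoma markers, limma called HNF4A (0.84) and FGB (2.28) higher and APOB (-1.47) lower with the combination. KRT8 (0.44), of 4 epithelial markers, and COL1A1 (2.15), of 3 fibroblast or stellate markers, were also called higher with it. The other markers of these lists were not called. Of the 3 fibroblast or stellate markers, 1 had a lower value, and their median log2-fold change was 0.41. With the combination, 36% of all genes were called.

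AREG and BTC lie on the long arm of chromosome 4, 290 kb apart between the gene ends, with EREG 56.4 kb on the other side of AREG. The 250 bases upstream of the RefSeq start of both genes (GRCh38.p14, 5′ to 3′ on the gene's strand) are shown because these ligands had the most alike changes among the EGF family members. In AREG (chr4:74444886-74445135, plus strand), capitals mark the palindrome TGACGTCA, a cyclic AMP response element (CRE), 65 to 58 bases upstream, and a GC box (GGGCGG or its complement CCGCCC) 9 to 4 bases upstream. In BTC (chr4:74794524-74794773, minus strand), they mark the FOXO motif GTAAACA, here as its reverse complement TGTTTAC, 231 to 225 bases upstream.
AREG: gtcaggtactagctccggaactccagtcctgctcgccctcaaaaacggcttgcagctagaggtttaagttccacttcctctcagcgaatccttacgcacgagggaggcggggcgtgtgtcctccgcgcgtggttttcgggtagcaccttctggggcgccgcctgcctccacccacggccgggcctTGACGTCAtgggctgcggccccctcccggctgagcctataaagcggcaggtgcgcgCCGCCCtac
BTC: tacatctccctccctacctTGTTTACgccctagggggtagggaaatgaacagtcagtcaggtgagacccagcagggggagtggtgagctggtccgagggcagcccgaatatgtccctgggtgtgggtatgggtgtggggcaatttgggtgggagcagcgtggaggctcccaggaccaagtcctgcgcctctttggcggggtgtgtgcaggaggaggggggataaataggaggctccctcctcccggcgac
Searched on both strands, the CRE was present in 1.65% of 35116 promoter windows of the same length, the FOXO motif in 2.98% and the GC box in 42.6%. GC boxes numbered 5 each in the windows of HBEGF and EFNA1, where neighbouring boxes overlap, and 1 in that of EFNB1. The AP-1 motif TGANTCA, the TEAD motif GGAATG, the E-box CACGTG and the ETS motif CCGGAAG had no match in the 5 windows of measured ligands.

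Before treatment, the lines differed in the levels and the order of their ligands, with 1 library each. Per kilobase of canonical transcript, EFNA1 stood first in Hep3B (344 scaled reads per kb) and in Huh7 (199), followed in both by PDGFC (74.1 and 72.7). In MHCC97H, EFNB1 (219) and AREG (148) came before EFNA1 (61.4), and PDGFC (0.672) was last. EFNB1 had no read in any Huh7 library, whereas its level was 671 to 1212 over the 4 libraries of MHCC97H and 54.4 to 85.9 over those of Hep3B. Against a floor of 3 reads in the matched Huh7 library, EFNB1 was at least 24.6-fold to 33.3-fold higher in Hep3B and at least 303-fold to 469-fold higher in MHCC97H. PDGFC was the reverse, with 4 to 16 reads per library in MHCC97H and 361 to 1149 in the other two lines.

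**Figure D1:**
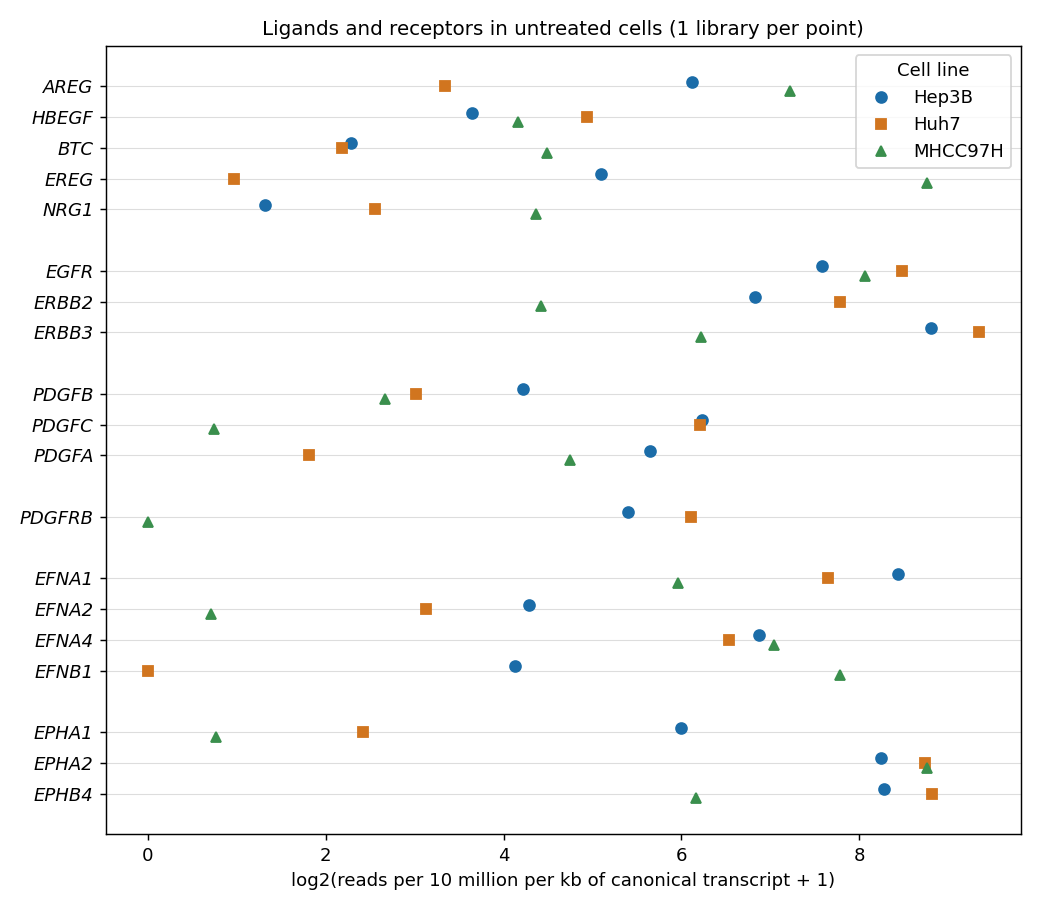
Untreated level of ligands (AREG to NRG1, PDGFB to PDGFA, EFNA1 to EFNB1) and of their receptors in each cell line, as log2(scaled reads per kb of canonical transcript + 1), 1 library per point. EFNB1 sits at 0 in Huh7 and PDGFRB at 0 in MHCC97H, while EGFR is high in all 3 lines.

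The line differences were tested over the 4 treatments (n = 4 libraries per line). These 4 libraries are different treatments of the same cells and not replicates. The adjusted p-values therefore rest on how a line difference varied over treatments and do not measure the spread between replicates of a line. The table holds genes with a mean log2 value of at least 4.65 over the libraries. EFNB1 reached it through Hep3B and MHCC97H, and PDGFC, with a mean log2 value of 2.81 in MHCC97H, through Hep3B and Huh7. The differences of these 2 genes from the line in which they are low are therefore given above as levels, with no test. Of the other 5 ligands, 3 were called lower in MHCC97H than the mean of Hep3B and Huh7, PDGFB (log2 difference -1.16 ± 0.34, SE, limma adjusted p = 0.0116), EFNA1 (-1.05 ± 0.29, adjusted p = 0.00764) and HBEGF (-1.05 ± 0.27, adjusted p = 0.00538), where 71% of all genes were called (32.7% higher and 38.3% lower). These differences are averages over treatments and include differences in drug response. Untreated HBEGF in MHCC97H (level 40.0) lay between Hep3B (27.2) and Huh7 (70.2), and MHCC97H was the lowest line with each drug treatment. EFNA1 in MHCC97H was above the mean of the other lines in 1 of 4 treatments, the combination. Between Hep3B and Huh7, AREG (log2 difference 2.38 ± 0.81, limma adjusted p = 0.0303), PDGFB (1.18 ± 0.40, adjusted p = 0.0281) and EFNA1 (1.16 ± 0.33, adjusted p = 0.0137) were called higher in Hep3B and HBEGF lower (-1.39 ± 0.31, adjusted p = 0.00368), with 55.1% of all genes called (30.7% higher and 24.5% lower). The calls of AREG, PDGFB and EFNA1 between Hep3B and Huh7 were each lost when 1 treatment was left out: AREG without any one of the 3 drug treatments (limma adjusted p = 0.053 to 0.0928), PDGFB without untreated cells, compound #57 or the combination (0.0628 to 0.153) and EFNA1 without AZD8055 or compound #57 (0.0688 and 0.0752). With voom, PDGFB was called in neither comparison of lines (adjusted p = 0.0753 for MHCC97H and 0.186 for Hep3B against Huh7).

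AREG encodes amphiregulin, an EGFR ligand of low affinity. In Hep3B its level was 84.4 untreated, 661 with AZD8055, 270 with compound #57 and 709.9 with the combination. In Huh7 the 4 levels, in the same order, were 11.3, 145, 57.5 and 139. In MHCC97H they were 183, 42.1, 102 and 47.7. All 3 drug treatments were thus above untreated cells in Hep3B and Huh7 and below them in MHCC97H, and the line with the highest untreated level had the lowest level under AZD8055 and under the combination. With AZD8055, AREG was 7.83-fold higher in Hep3B (interval 6.29 to 9.85), 12.8-fold higher in Huh7 (7.88 to 22.1) and 4.34-fold lower in MHCC97H (3.26 to 5.86). Compound #57 gave 3.19-fold and 5.10-fold higher levels in Hep3B and Huh7 and a 1.80-fold lower level in MHCC97H (interval 1.43 to 2.26). The mean over the 3 lines was not called in any treatment comparison (AZD8055: 1.48 ± 0.94, SE, limma adjusted p = 0.326). Fitted without MHCC97H, the AZD8055 change was 3.26 (n = 2 lines). This is given as a size only, since the line left out is the one seen to go the other way.

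**Figure D2:**
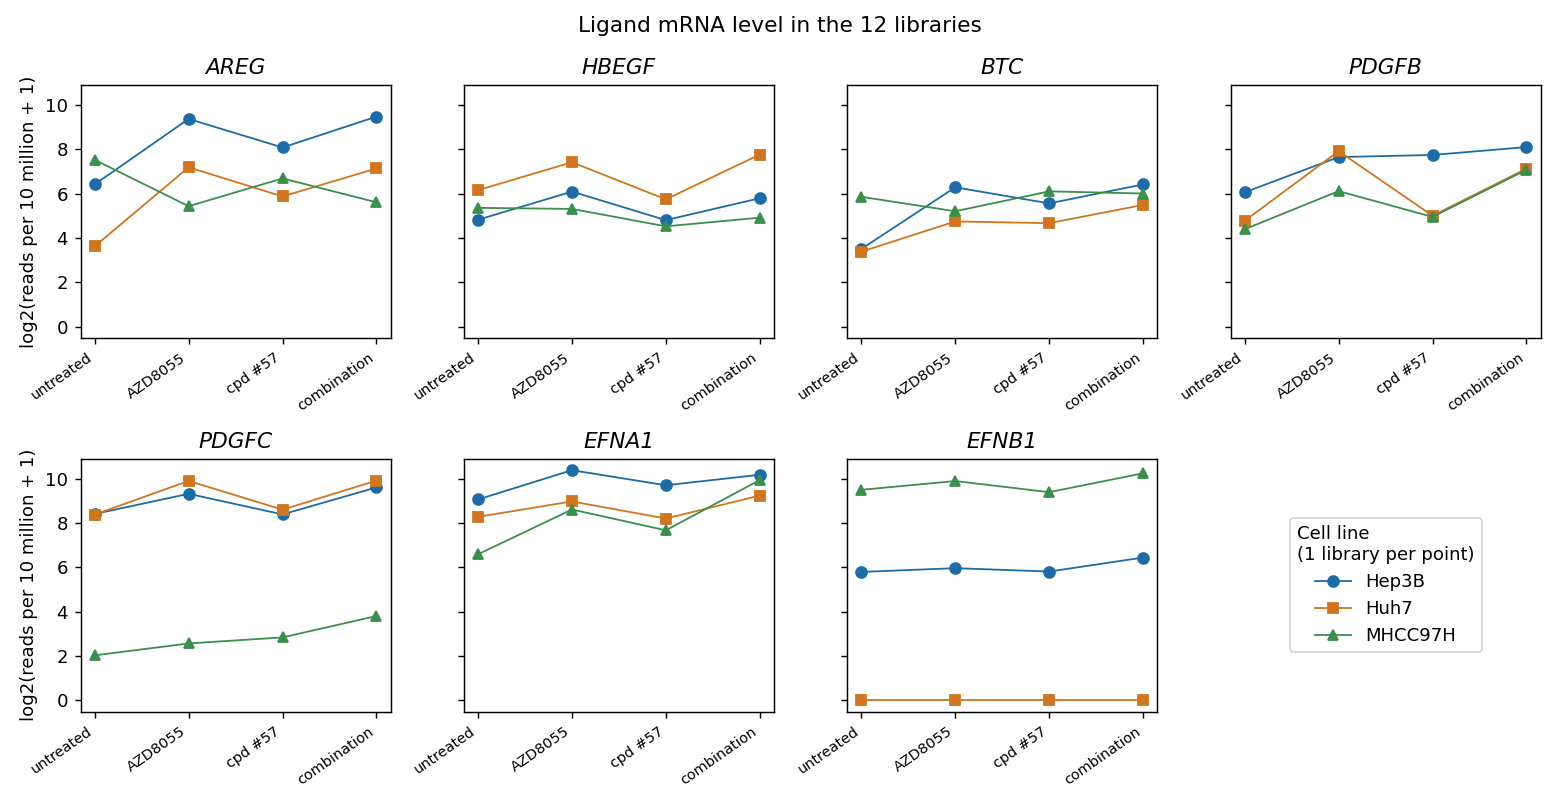
Level of each ligand, log2(scaled reads + 1), in untreated, AZD8055, compound #57 (cpd #57) and combination libraries, 1 line per cell line and 1 library per point; lines join conditions and are no time course. AREG moves up in Hep3B and Huh7 and down in MHCC97H, whereas PDGFB lies above untreated cells in each line with AZD8055 and the combination.

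The difference between the lines was tested directly, in a limma fit chosen after the values were seen, as the response in MHCC97H minus the mean response in Hep3B and Huh7. For AREG it was -5.35 ± 0.39 (log2, SE, limma adjusted p = 0.0164) with AZD8055, where AREG and the chemokine gene CXCL8 were the 2 genes called of 11548 (0.0173%). With the combination it was -5.20 ± 0.39 (limma adjusted p = 0.0146), among 109 genes called (0.944%). With compound #57 it was -2.80 ± 0.39 (limma adjusted p = 0.214), where no gene was called and 896 had an unadjusted p under 0.05. The fit left 3 residual degrees of freedom per gene, and limma moderated the spread of each gene by that of all genes. The spread behind this test came from the distance between Hep3B and Huh7 alone. MHCC97H, a single line with 1 library per condition, was assumed to vary like them, and the opposite direction of AREG was seen before it was tested. The adjusted p-values of response differences, here and for the other genes, therefore describe these libraries and do not show that such a difference would recur in further lines, and the shorter treatment of MHCC97H cannot be told apart from the line.

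EREG, which encodes the EGFR and ERBB4 ligand epiregulin and neighbours AREG, had levels of 1998 untreated, 364 with AZD8055, 771 with compound #57 and 222 with the combination in MHCC97H. In Hep3B the 4 levels were 153, 267, 83.2 and 218, and in Huh7 they were 4.39, 12.5, 4.43 and 6.89 (6 to 15 reads). EREG was thus below untreated cells with each drug in MHCC97H, while in Hep3B it was above untreated cells with AZD8055 and the combination. The response difference of EREG on the log2 scale was -3.51 with AZD8055 and -3.69 with the combination. The Huh7 log2 values of EREG, 2.43 to 3.75, lie below the lowest mean of the table (4.65). EREG thus reached the table through Hep3B and MHCC97H, and these differences are given with no test. NRG1, a ligand of ERBB3 and ERBB4, was not called in any of the 3 comparisons with untreated cells, and the other 5 EGF family ligands listed (EGF, EPGN, NRG2, NRG3 and NRG4) were not analysed here.

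BTC encodes betacellulin, which binds EGFR and ERBB4. Its levels in Hep3B were 10.3 untreated, 76.9 with AZD8055, 46.1 with compound #57 and 84.3 with the combination. Huh7 had 9.40, 25.8, 24.3 and 43.9 in the same order, and MHCC97H 56.9, 35.8, 67.6 and 63.1. Every drug library of Hep3B and Huh7 was above its untreated library, whereas the MHCC97H library with AZD8055 was the one below it. Untreated Hep3B and Huh7 rest on 11 and 15 reads, so that the 8.17-fold and 4.67-fold higher levels with the combination carried intervals of 4.38 to 16.9 and 2.58 to 8.94. Over the 3 lines, BTC was upregulated by the combination (1.72 ± 0.52, SE, limma adjusted p = 0.0289; higher in 3 of 3 lines) and was not called with AZD8055 (1.16 ± 0.52, limma adjusted p = 0.182) or compound #57 (1.20 ± 0.52, limma adjusted p = 0.221). In MHCC97H the combination level was 1.11-fold the untreated one (interval 0.797 to 1.55), and without Hep3B or without Huh7 the call was lost (limma adjusted p = 0.172 and 0.215), as it was in a fit of only the 6 libraries compared (0.092). The response difference of BTC with AZD8055 was -2.73 ± 0.65 and was not called (limma adjusted p = 0.235).

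HBEGF encodes heparin-binding EGF-like growth factor, a ligand of EGFR and ERBB4. Levels in Hep3B were 27.2 untreated, 67.1 with AZD8055, 26.9 with compound #57 and 54.3 with the combination. The corresponding levels were 70.2, 170, 52.4 and 216 in Huh7, and 40.0, 38.6, 21.95 and 29.1 in MHCC97H. AZD8055 and the combination thus lay above untreated cells in Hep3B and Huh7, and compound #57 alone lay below or at the untreated level in each line. The AZD8055 level was 2.47-fold higher in Hep3B (interval 1.60 to 3.91) and 2.42-fold higher in Huh7 (1.91 to 3.07), against 0.966-fold in MHCC97H (0.649 to 1.44). HBEGF was not called over the 3 lines, neither with AZD8055 (0.83 ± 0.36, limma adjusted p = 0.168) nor with the combination (0.71 ± 0.36, limma adjusted p = 0.141).

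PDGFB, the gene of the PDGF-B chain which binds both PDGF receptors, was the ligand called with AZD8055. In Hep3B its levels were 65.7 untreated, 200 with AZD8055, 213 with compound #57 and 273 with the combination. Huh7 had 26.3, 240, 31.0 and 139, and MHCC97H 19.98, 68.1, 29.9 and 133. AZD8055 and the combination were above the untreated cells of the same line in all 3 lines. Compound #57 alone stood clear of untreated cells in Hep3B (3.25-fold, interval 2.50 to 4.26). It had intervals that include 1 in Huh7 (0.749 to 1.85) and MHCC97H (0.871 to 2.59). PDGFB was upregulated 3.04-fold in Hep3B, 9.13-fold in Huh7 and 3.41-fold in MHCC97H by AZD8055, which made 2.15 ± 0.46 on the log2 scale over the lines (SE, limma adjusted p = 0.043). The combination gave 2.36 ± 0.46 (limma adjusted p = 0.00586), with 4.16-fold, 5.26-fold and 6.68-fold higher levels, and was not called without Huh7 (limma adjusted p = 0.0617). The AZD8055 call sat near the threshold and was lost without any 1 of the lines (limma adjusted p = 0.0963 to 0.366), in a fit of only the 6 libraries compared (0.0641) and with voom (0.0507).

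PDGFC encodes PDGF-C, which acts mainly through PDGFRA. Hep3B had levels of 339 untreated, 637 with AZD8055, 334 with compound #57 and 779 with the combination, and Huh7 had 332, 955, 387 and 965. In MHCC97H the levels were 3.07, 4.91, 6.15 and 12.9, from 4, 7, 7 and 16 reads. AZD8055 and the combination were above untreated cells in Hep3B and Huh7. Compound #57 left Hep3B at 0.987-fold (interval 0.861 to 1.13) and Huh7 at 1.17-fold, with an interval above 1 (1.03 to 1.32). In MHCC97H the interval included 1 for AZD8055 (1.60-fold, 0.406 to 7.45) and for the combination over compound #57 (2.11-fold, 0.820 to 6.05), and lay above 1 for the combination over untreated cells (4.21-fold, 1.36 to 17.3). PDGFC was upregulated by the combination over untreated cells (1.503 ± 0.27, SE, limma adjusted p = 0.00452) and over compound #57 alone (1.17 ± 0.27, limma adjusted p = 0.0448), with a higher value in 3 of 3 lines. The first call was lost without Huh7 (limma adjusted p = 0.075), and the second without Hep3B or Huh7 (0.178 and 0.416) and with 10 in place of 1 added to the levels (0.0501). With AZD8055 alone it missed the threshold (0.99 ± 0.27, limma adjusted p = 0.0656), and it passed with voom (0.0291) or without MHCC97H (0.0297). Of the remaining PDGF ligands, PDGFA was upregulated by the combination (1.91 ± 0.38, limma adjusted p = 0.00621) and PDGFD was not analysed here.

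EFNA1 encodes ephrin-A1, a ligand of EPHA2 and other EphA receptors. Hep3B had levels of 534 untreated, 1336 with AZD8055, 833 with compound #57 and 1158 with the combination. Huh7 had 309.6, 502, 294 and 603, and MHCC97H had 95.3, 389.6, 203 and 981. AZD8055 and the combination were above untreated cells in all 3 lines, and under the combination MHCC97H reached a level between those of Huh7 and Hep3B although it began 3.25-fold below Huh7. The combination gave 2.17-fold higher levels in Hep3B (interval 1.97 to 2.40), 1.95-fold in Huh7 (1.73 to 2.19) and 10.3-fold in MHCC97H (8.56 to 12.5), which made 1.81 ± 0.38 on the log2 scale over the lines (SE, limma adjusted p = 0.00795). This call was lost without Huh7 (limma adjusted p = 0.0721) and in a fit of only the 6 libraries compared (0.0594). With AZD8055 the change was 1.35 ± 0.38 and was not called (limma adjusted p = 0.0708). The response to the combination was larger in MHCC97H than the mean of the other lines by 2.31 ± 0.35 (log2, limma adjusted p = 0.0467), which did not pass with 10 added (0.0557), with centred libraries (0.0535) or with voom (0.0804).

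EFNB1, the gene of ephrin-B1 which binds EphB receptors, differed more between lines than between treatments. Hep3B had levels of 54.4, 61.3, 55.1 and 85.9, and MHCC97H 722, 951, 671 and 1212, in the order untreated, AZD8055, compound #57 and combination. The combination library was the highest of the 4 in both lines, 1.58-fold above untreated cells in Hep3B (interval 1.14 to 2.21) and 1.68-fold in MHCC97H (1.55 to 1.82). EFNB1 was not called in any of the 5 treatment comparisons, whose fits include the Huh7 libraries at 0. Among the other ephrins, EFNA2 was upregulated by the combination (1.97 ± 0.33, limma adjusted p = 0.00377). Its level went from 45.0 to 186 in Hep3B, from 18.8 to 49.1 in Huh7 and from 1.54 to 13.8 in MHCC97H. The untreated MHCC97H level is below that of 3 reads in its library (2.30). EFNA4 was not called (0.54 ± 0.20, limma adjusted p = 0.0588) and EFNA3, EFNA5, EFNB2 and EFNB3 were not analysed here.

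**Figure D3:**
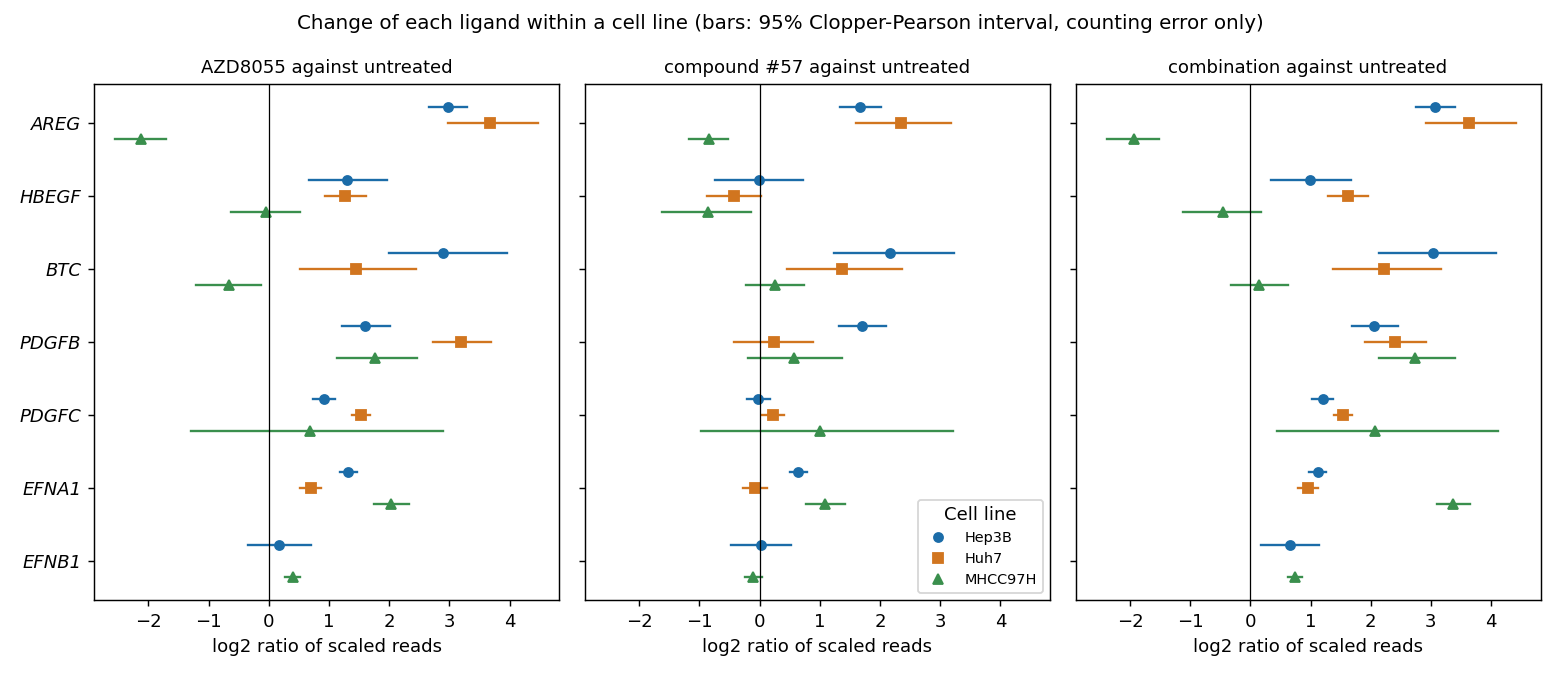
Log2 ratio of scaled reads of each ligand against untreated cells of the same line, with bars for the 95% Clopper-Pearson interval (counting error only; EFNB1 in Huh7 had no reads). The AREG points of MHCC97H lie on the other side of 0 from those of Hep3B and Huh7 in each panel, and the EFNA1 point of MHCC97H lies to the right of those of Hep3B and Huh7 with AZD8055 and the combination.

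Counted within lines on the log2(level + 1) scale, AZD8055 gave at least 2-fold higher levels for 5 of 7 ligands in Hep3B (3.81% of all genes), 5 of 6 with reads in Huh7 (5.89%) and 2 of 7 in MHCC97H (7.14%), with AREG at least 2-fold lower in MHCC97H (3.07%). Compound #57 gave 3 (8.96%), 2 (4.43%) and 1 (3.12%) at least 2-fold higher. The combination gave 5 (11.6%), 5 (12%) and 3 (11.4%) higher and AREG lower in MHCC97H (4.72%). The median log2-fold change of the ligands with reads was 1.32, 1.44 and 0.40 with AZD8055 in Hep3B, Huh7 and MHCC97H, beside medians of 0.02, -0.02 and 0.05 over all genes.

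Over the 3 lines, AZD8055 called 1 of 7 ligands (2.96% of all genes), compound #57 none (0.00866%, or 1 gene; BTC was the ligand with an unadjusted p under 0.05, at 0.0452) and the combination 4 (36%). All 4 were higher with the combination, as were 20.9% of all genes, and PDGFB was higher with AZD8055, as were 2.21%. The median log2-fold change of the 7 ligands with the combination was 1.55, beside 0.09 over all genes. These counts turned on single lines. Without Huh7 the combination called 0 ligands and 11 genes in place of 4154, without MHCC97H compound #57 called 2 ligands and 778 genes in place of 1, and AZD8055 called 0 ligands without Hep3B or Huh7 and 2 without MHCC97H, with 342 genes going to 1, 0 and 109. The 3 comparisons share the untreated libraries and are set side by side only.

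**Figure D4:**
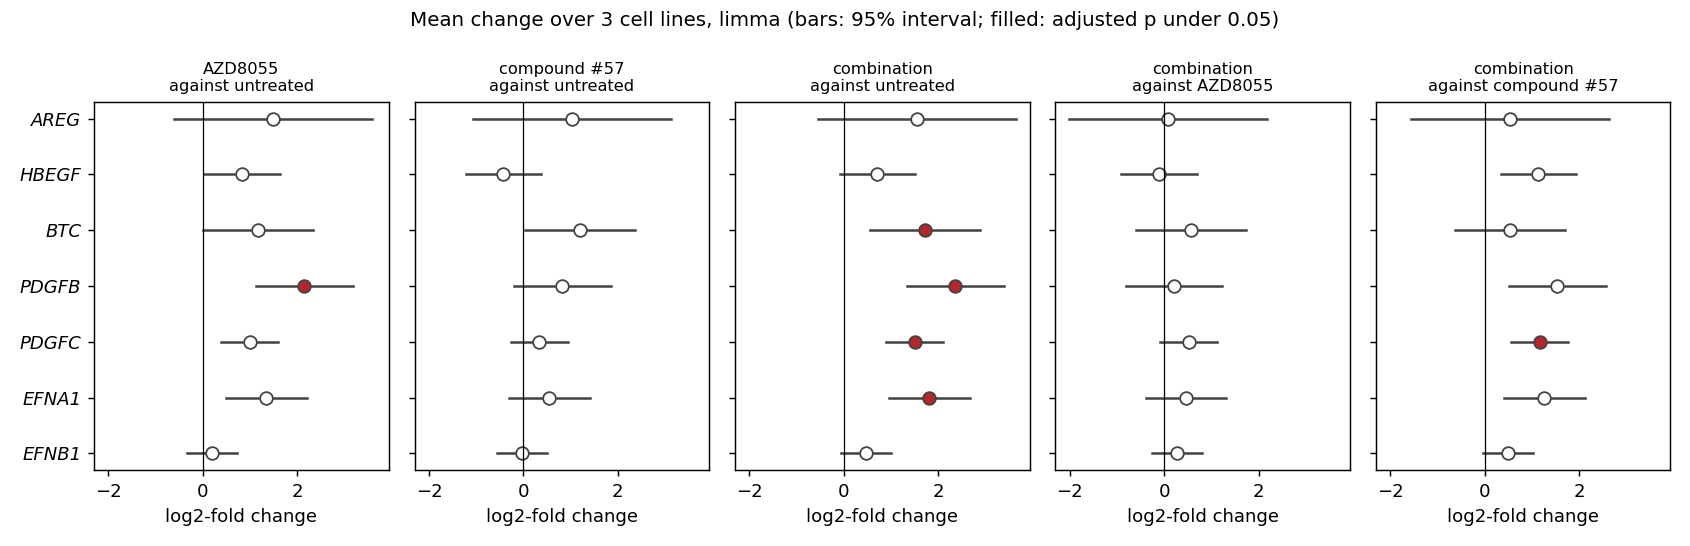
Mean log2-fold change of each ligand over the 3 cell lines (limma, 12 libraries, cell line as a term) with its 95% interval, in 5 comparisons; filled points passed an adjusted p of 0.05 over all 11548 genes. AREG has the widest interval in each comparison, and the filled points are PDGFB with AZD8055, BTC, PDGFB, PDGFC and EFNA1 with the combination, and PDGFC for the combination over compound #57.

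The combination was also set against each drug alone. Against AZD8055 no ligand and no gene was called with limma (smallest adjusted p = 0.121; 1673 genes had an unadjusted p under 0.05). Within the lines, AREG levels with the combination were 1.07-fold (interval 0.975 to 1.18) those with AZD8055 in Hep3B, 0.964-fold in Huh7 (0.773 to 1.20) and 1.13-fold in MHCC97H (0.778 to 1.65). EFNA1 and PDGFC were at least 2-fold higher than with AZD8055 in MHCC97H, as were 2.81% of all genes (2.52-fold, interval 2.28 to 2.79, and 2.63-fold, 1.03 to 7.57), and PDGFB in Huh7 was 1.73-fold lower. In MHCC97H PDGFB was 1.96-fold higher with the combination than with AZD8055, and the difference between these lines was not tested. Against compound #57, 1 of 7 ligands was called (PDGFC; 4.18% of all genes), and PDGFB (1.54 ± 0.46, limma adjusted p = 0.0813), EFNA1 (1.26 ± 0.38, adjusted p = 0.0849) and HBEGF (1.13 ± 0.36, adjusted p = 0.0928) were higher in 3 of 3 lines without passing.

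The receptors of these ligands were present to different extents. EGFR had levels of 1778 to 5092 over the 12 libraries and was not called in the comparisons with untreated cells. ERBB2, the partner receptor without a ligand of its own, was upregulated with AZD8055 (0.96 ± 0.16, limma adjusted p = 0.0315) and the combination (1.33 ± 0.16, limma adjusted p = 0.00191). ERBB3 went from 413 to 2009 with AZD8055 and 3034 with the combination in MHCC97H, stayed between 2263 and 3646 in the other lines and was not called over the 3 lines (limma adjusted p = 0.261 with AZD8055 and 0.119 with the combination). The ERBB3 response in MHCC97H was larger than the mean of the other lines by 2.84 ± 0.26 with the combination (log2, limma adjusted p = 0.0183) and by 2.16 ± 0.26 with AZD8055, which was not called (limma adjusted p = 0.109). PDGFRB had 0 reads in 3 MHCC97H libraries and 5 in the library with AZD8055, beside 77 to 618 in Hep3B and Huh7, and ERBB4 and PDGFRA were not analysed here. EPHA2 was downregulated by the combination (-0.87 ± 0.26, limma adjusted p = 0.0277), with levels of 519 to 2094 over the libraries, EPHB4 was not called and 11 of 14 Eph receptors listed were not analysed here. EPHA1 had a change in the other direction with the combination (0.78 ± 0.31) and was not called (limma adjusted p = 0.0759), with 2 to 5 reads in the MHCC97H libraries.

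Genes of proteins that release or process the ligands were read in the same fits. ADAM17, the main sheddase of amphiregulin and HB-EGF, had levels of 233 to 580 and ADAM10, that of betacellulin, 2398 to 3816, and neither was called against untreated cells. The iRhoms RHBDF1 and RHBDF2, which carry ADAM17 to the cell surface, were upregulated by the combination (1.41 ± 0.25, limma adjusted p = 0.00417, and 0.73 ± 0.16, adjusted p = 0.010), RHBDF2 also by AZD8055 (0.83 ± 0.16, limma adjusted p = 0.039), as was FRMD8, which stabilizes the iRhoms, by the combination (0.55 ± 0.12, adjusted p = 0.0102). ADAM15 was slightly downregulated by the combination (-0.43 ± 0.14, limma adjusted p = 0.0415), which left 3 of 8 measured genes of the group higher and 1 lower, beside 20.9% of all genes higher and 15.1% lower. Of the proteases that can activate growth factors, ST14 was upregulated by the combination (1.32 ± 0.38, limma adjusted p = 0.0242). FURIN (0.18 ± 0.21, limma adjusted p = 0.513) and PLAU were not called, and PLAT was not analysed here. Of 6 ERBB and PDGF co-factors and inhibitors, NRP2 rose (2.40 ± 0.48, limma adjusted p = 0.00629) and LRIG1, a negative regulator of ERBB receptors, fell (-0.80 ± 0.24, adjusted p = 0.0279) with the combination.

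Genes commonly induced by ERK were read beside the ligands, since several of the ligands are themselves ERK-responsive. The combination downregulated 5 of 13 of them, DUSP6 (-2.45 ± 0.70, limma adjusted p = 0.0235), EGR1 (-3.51 ± 1.09, adjusted p = 0.0324), ETV4 (-2.67 ± 0.65, adjusted p = 0.0131), ETV5 (-2.49 ± 0.80, adjusted p = 0.0365) and SPRED2 (-0.72 ± 0.19, adjusted p = 0.0173), and raised none past the threshold. This count stands beside 36% of all genes called with the combination and 15.1% called lower. With compound #57 alone, 11 of 13 had values below untreated cells and the median log2-fold change was -1.77, against -0.90 with the combination, although limma called none of them (0.00866% of all genes). Set against compound #57, the combination had higher values for 12 of 13, none of them called. Set against AZD8055, the combination had lower values for 12 of 13 (median log2-fold change -1.16). AZD8055 alone had values above untreated cells for 10 of 13 (median 0.26). None of the 13 was called in either comparison. DUSP4, the gene of another ERK phosphatase, had a change of the opposite sign from DUSP6 with the combination (1.25 ± 0.51, limma adjusted p = 0.0786), with levels that went from 35.6 to 264 in Hep3B, from 434 to 1219.5 in Huh7 and from 1459.7 to 959.6 in MHCC97H. In the same libraries of Hep3B and Huh7, DUSP6 went from 924 to 64.8 and from 1421 to 292 while AREG went from 84.4 to 709.9 and from 11.3 to 139. In MHCC97H both were lower, DUSP6 from 1767 to 745 and AREG from 183 to 47.7.

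Values of each gene were centred within each cell line to compare patterns over the 12 libraries, which share their lines, treatments and depth. AREG and BTC had a Pearson r of 0.86, PDGFB and PDGFC 0.86, PDGFB and EFNA1 0.82, PDGFC and EFNA1 0.81, and AREG and EFNA1 0.06. By the same measure, the 3 most similar of the upper 75% of genes by mean were ARSJ (0.94), DNAH14 (0.93) and TNFRSF12A (0.93) for AREG, DAGLA (0.95), LRRFIP1 (0.95) and ATN1 (0.94) for HBEGF, and DCBLD1 (0.92), FAM219A (0.91) and CXCL8 (0.90) for BTC. They were MYO1C (0.98), SUN1 (0.97) and RNF19A (0.95) for PDGFB, ZNF12 (0.98), RNF13 (0.97) and ZNF322 (0.97) for PDGFC, AGBL5 (0.97), AC016747.3 (0.97) and BNIP3L (0.97) for EFNA1, and PSENEN (0.92), CFLAR (0.92) and CNOT8 (0.92) for EFNB1. For EFNB1 the Huh7 values are constant at 0 and add nothing to r. CXCL8 had levels of 97.6, 614, 344 and 776 in Hep3B, 105, 894, 383 and 1066 in Huh7 and 61.5, 42.1, 172 and 184 in MHCC97H, in the order used above.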

How the data were processed

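Polyadenylated RNA of 12 samples (3 cell lines, 4 treatments) was sequenced from TruSeq libraries. Per the methods the reads were aligned to hg38, and what the authors deposited is 1 log2 value for each gene in each library. The aligner, counting and normalization are not given in the sources used here. A value of 0.001 was read as 0 reads. After its removal, 100% of the linear values were whole multiples (tolerance 0.1 read) of 1 step per library, and the table held 98.6% to 99.3% of each library's 10659952 to 15957252 reads. Levels are therefore reads scaled to 10000000 per library, and a count of 0 allows up to 3 reads. Of the gene names, 18 had become dates and stayed in the tests unnamed.

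limma 3.58.1 (R 4.3.3; lmFit, eBayes with trend) was fitted to log2(level + 1) of all genes in the 12 libraries with cell line and treatment as terms, and p-values were adjusted by Benjamini-Hochberg over 11548 genes. Libraries of 1 cell line form a block, since they are the same cells, and cell lines are the replicates of a treatment. The MHCC97H response difference used treatment by line group and was added after the values were seen. scipy 1.17.1 gave the Clopper-Pearson intervals. On simulated data, calls were scored for AZD8055 against untreated cells only. For the MHCC97H line difference and the AZD8055 response difference, the check was that an added shift was returned with its sign and size. The other fits were not tested on simulated data. Alternatives were 10 added, the upper 75% of genes, median centring, no block, only the libraries compared, voom on whole reads and leaving out lines or treatments.

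The ligands and a fixed set of receptors, sheddases and activators were named whatever their values. Other listed genes were named by choice, and some that were called in a comparison of treatments or lines are not named. The members and lists were chosen with earlier results of these data known. Coordinates came from GENCODE 44 (hg38) and promoters from RefSeq (GRCh38.p14), which matched 5 of the 7 measured ligands.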

Additional observations from a re-analysis of the deposited data

Results flagged for a closer look

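The response of AREG to AZD8055 differed between MHCC97H and the mean of Hep3B and Huh7 by -5.35 on the log2 scale (limma adjusted p = 0.0164), with the MHCC97H library below and both other libraries above their untreated cells. The response of AREG to the combination differed by -5.20 (limma adjusted p = 0.0146), again with opposite directions. The response of EFNA1 to the combination differed by 2.31 (limma adjusted p = 0.0467), with all 3 lines above untreated cells and MHCC97H farthest, and it did not pass with 10 added (0.0557), with centred libraries (0.0535) or with voom (0.0804). The test of these differences was chosen after the values were seen. Its spread comes from Hep3B and Huh7 alone, with the single MHCC97H line assumed to vary like them, so that the adjusted p-values describe these libraries, and line and duration of treatment cannot be told apart in it.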

How the results depend on the processing

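Of 472 member log2-fold changes recomputed under the alternatives, 415 kept their direction and side of the threshold, 38 lost a call, 15 gained one and 4 changed sign. The 4 that changed sign were not called: EFNB1 with compound #57 (-0.053 to 0.0085 with 1 line left out, above 0 without MHCC97H), HBEGF and PDGFB for the combination over AZD8055 (-0.35 to 0.024 and -0.17 to 0.71, signs changed without MHCC97H) and the PDGFC response difference with the combination (-0.53 with 10 added). Libraries of the same line form a block. With no replicate block, 0 ligands were called with AZD8055, with the combination and for the combination over compound #57 (1, 4 and 1 with it), and 3 in each comparison of lines (5 with it, counting EFNB1 in both and PDGFC in that of MHCC97H, which are not tested in the report), while genes called fell to 0 in all 3 of those drug comparisons and in that of compound #57.

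Only EFNA1 lies in the upper 75% of genes by mean, so that this filter left 0 ligands called with AZD8055 and for the combination over compound #57, 1 with the combination and in each line comparison, 0 for the response difference with AZD8055 and 1 with the combination. With 10 added, 0 ligands were called for the combination over compound #57, 1 for the response difference with the combination, and 1 in place of 2 ligand and line pairs was at least 2-fold changed for the combination over AZD8055. Centred libraries and voom each called 1 ligand for the response difference with the combination. Voom called 2 ligands for the combination over compound #57, and fits of only the libraries compared called 0 with AZD8055 and 2 with the combination.

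Leaving out 1 line gave 0 to 2 ligands called with AZD8055 (2 without MHCC97H), 0 to 2 with compound #57 (2 without MHCC97H, 778 genes), 0 to 6 with the combination (0 without Huh7, 6 without MHCC97H) and 0 to 3 for the combination over compound #57 (3 without MHCC97H). Leaving out 1 treatment gave 2 to 5 between Hep3B and Huh7. Without Huh7, 11 genes in place of 4154 were called with the combination, 0 in place of 342 with AZD8055 and 0 in place of 483 for the combination over compound #57; without Hep3B they were 1797, 1 and 1, and without MHCC97H 109 with AZD8055 and 3 for the combination over AZD8055. Fits of only the libraries compared called 2, 1889 and 265 genes with AZD8055, the combination and the combination over compound #57, and voom 579 with AZD8055 and 46 with compound #57. The cause of these changes was not tested. A further count test listed among the alternatives was not run on the log2 values.

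Reads limit PDGFC in MHCC97H (4 to 16) and untreated BTC (11 and 15 in Hep3B and Huh7), whose folds carry wide intervals. EFNB1 had no read in Huh7, where a change was not detectable at this depth.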
